A study of Mus musculus with 5 samples.

Results

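The members described here are 4 mature miRNAs that are commonly abundant in extracellular vesicles (EVs): mmu-miR-320-3p, mmu-miR-484, mmu-miR-423-5p and mmu-miR-423-3p, the last 2 being the strands of miR-423. They were chosen by name from the 1966 miRNA rows of the count table, of which 517 had a count in any library and 327 passed the filter on low counts. All 4 passed it. The series asked whether freeze-drying changes the miRNA content of EVs released by murine mesenchymal stem cells. The cells came from C57BL/6-GFP transgenic mice, a strain shared by both groups. They spent 48 h in serum-reduced medium before small EVs were pelleted at 100000 g. The freeze-dried group (n = 3) was frozen at -80 °C in buffer with 25 mM trehalose, a sugar that protects membranes, then dried overnight and rehydrated. The not freeze-dried group (n = 2) held EVs without this treatment, and the labels list several buffers and storage temperatures without saying which applied to these samples. They also do not say whether the replicates of a group came from separate cultures. A p-value here therefore reflects the spread of these 5 samples alone, part or all of which may be technical.

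miRNAs are short RNAs that guide the silencing of messenger RNAs through their seed, bases 2 to 8. Most are cut out of a hairpin in 2 steps, by Drosha in the nucleus and by Dicer in the cytoplasm. Mouse miR-320 and miR-484 are exceptions: their hairpins are transcribed as short RNAs that go to Dicer without a cut by Drosha. The 5′ end of the miR-320 hairpin carries a cap, and its 3p strand is the one loaded into the silencing complex. miR-423 is made by Drosha and Dicer in the usual way, and both of its strands are found in many cell types.

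RefSeq sequences (GRCm38.p6) were found for 3 of the 4 members, miR-484 and the 2 miR-423 strands. They are shown because the seed sets which messenger RNAs a miRNA can pair with, and because the ratio of the 2 miR-423 strands is described below; the seed is in capitals.
miR-484: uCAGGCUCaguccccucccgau
miR-423-5p: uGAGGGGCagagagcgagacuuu
miR-423-3p: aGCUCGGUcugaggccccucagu

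These 3 seeds all differ. No other of the 1679 mouse mature sequences in the RefSeq table shares the seed of miR-484 or of miR-423-3p. The seed of miR-423-5p is shared by 1, miR-6921-5p, which had 0 counts in these libraries. The 2 miR-423 strands come from a hairpin of 109 bases at chr11:77078064-77078172 on the minus strand, within an intron of Nsrp1, which encodes a nuclear speckle splicing regulator (GENCODE M21, GRCm38). The hairpin is shown with the 5p strand first and the 3p strand second in capitals, to place both strands on their common precursor.
Mir423 hairpin: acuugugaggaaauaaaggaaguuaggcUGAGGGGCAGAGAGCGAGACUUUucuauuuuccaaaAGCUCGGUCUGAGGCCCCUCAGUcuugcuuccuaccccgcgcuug

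Bases 1 to 8 of miR-423-5p, which include its seed, are the exact reverse complement of bases 14 to 21 of miR-423-3p. The miR-484 hairpin lies at chr16:14159626-14159692 on the plus strand. The annotation places Marf1 across it on the opposite strand, with an untranslated exon over part of the hairpin but not over the mature strand. The use of strand in counting is not given in the sources used here, so reads from the opposite strand at miR-484 could not be told apart. The 3 members with a sequence had GC contents of 63.6% (miR-484), 56.5% (miR-423-5p) and 65.2% (miR-423-3p), against quartiles of 40.9% and 57.1% over the 273 tested miRNAs with a sequence. The letters CCCU, one of the motifs described in human miRNAs that are exported in vesicles, occurred in miR-484 from base 13 and in miR-423-3p from base 16. They were in 10.3% of the 273 sequences. GGAG, another such motif, occurred in none of the 3 and in 11% of the 273. A match of 4 letters is a description and not a binding site.

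Library totals ranged from 192450 to 2914305 counts in freeze-dried EVs and from 131507 to 912080 in not freeze-dried EVs. Libraries of at least 500000 counts are called deep here: freeze-dried replicates 1 and 2 and not freeze-dried replicate 1. The other 2, freeze-dried replicate 3 and not freeze-dried replicate 2, are called shallow. The label was set beside 8 miRNAs of mesenchymal cells, among them miR-143-3p and miR-199a-3p, all of which had counts. Having counts does not single out these cells, as miR-21a-5p of the 8 is also listed below as often abundant in vesicles or blood. Together the 8 took 15.9% to 19.2% of the counts in freeze-dried EVs and 22.8% to 23.4% in not freeze-dried EVs, without overlap. Their members went both ways, 4 with a fitted fold above 1 and 4 with one below it, and none was called; their log2 fold changes had a median of 0.01. The most abundant, miR-21a-5p and miR-143-3p, had log2 fold changes of -0.28 (SE 0.33) and -0.66 (SE 0.26), and miR-199a-3p had 0.57 (SE 0.34). Leukocyte markers took up to 0.00883% in freeze-dried EVs and 0.0114% to 0.0279% in not freeze-dried EVs, with miR-142a-3p and miR-142a-5p at 0 in all libraries. Epithelial markers took 0.0203% to 0.0421% in freeze-dried EVs and 0.0707% to 0.0736% in not freeze-dried EVs, with miR-200c-3p and miR-141-3p at 0 in all libraries. Most of that sum was miR-203-3p, with 1109, 303 and 35 counts in freeze-dried replicates 1, 2 and 3, and 671 and 93 in not freeze-dried replicates 1 and 2. The other 3 with counts, miR-200a-3p, miR-200b-3p and miR-205-5p, had them in freeze-dried libraries and 0 in both not freeze-dried ones. These lists were short, with 6 epithelial, 2 neural and 1 hepatocyte miRNA. Other miRNAs of these cell types were not part of the sums. Red cell markers took 0.0721% to 0.12% in freeze-dried EVs and 0.0615% to 0.0867% in not freeze-dried EVs. The ranges of the listed neural and hepatocyte markers, all below 0.03%, overlapped too. The part of these differences in the results below was not tested.

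The 4 members together took 3.06%, 6.11% and 5.47% of the miRNA counts in freeze-dried replicates 1, 2 and 3, and 4.24% and 4.06% in not freeze-dried replicates 1 and 2. The freeze-dried libraries lay on both sides of the not freeze-dried ones. The means were 4.88% ± 1.61 (SD, n = 3) in freeze-dried EVs and 4.15% ± 0.13 (SD, n = 2) in the not freeze-dried group, a difference of 0.734 percentage points that is smaller than the SD of the freeze-dried group. Without freeze-dried replicate 1 the difference was 1.65 points, and without freeze-dried replicate 2 it was 0.119 points. Mature miRNAs are short enough to be read whole, so the levels of the 4 are set side by side without a length correction. They are given as counts per 1000000 (CPM) after TMM normalisation. Whether different miRNAs were captured alike in the libraries was not tested, so orders and shares between members are of counts.

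miR-320-3p was the most abundant of the 4 in all 5 libraries. It stood at 15236, 31589 and 34573 CPM in freeze-dried replicates 1, 2 and 3, and at 18991 and 19204 CPM in not freeze-dried replicates 1 and 2. Freeze-dried replicate 1 was the lowest of all and the other freeze-dried libraries were the highest, so the groups overlapped. In rank it was the 17th, 8th and 7th most abundant miRNA in the freeze-dried libraries and the 12th in both not freeze-dried libraries. Its mean was 27133 ± 10410 CPM in freeze-dried EVs (SD, n = 3) and 19098 ± 150 CPM in the not freeze-dried group (SD, n = 2). On the log2 scale the fold change was 0.51, with an SE of 0.36 and a 95% interval of -0.29 to 1.31. By edgeR's quasi-likelihood test this was not called, with a Benjamini-Hochberg adjusted p of 0.976. Without freeze-dried replicate 1 the log2 fold change was 0.81 (interval 0.16 to 1.46, unadjusted p = 0.0212, adjusted p = 0.998 by edgeR, which over all alternatives was 0.793 to 0.999).

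The 5p strand of miR-320, the other strand of its hairpin, had few counts. It had 0, 0 and 74 counts in freeze-dried replicates 1, 2 and 3, and 8 and 15 counts in not freeze-dried replicates 1 and 2. As a share of both miR-320 strands this was 1.20% in freeze-dried replicate 3 (95% Wilson interval 0.959 to 1.51), against 0.0413% (0.0209 to 0.0814) and 0.594% (0.361 to 0.978) in not freeze-dried replicates 1 and 2. For the 0 counts in freeze-dried replicates 1 and 2, the upper ends of the Wilson intervals were 0.00916% and 0.00472%, and a limit of 3 counts gave 0.00715% and 0.00368%. The 2 shallow libraries, 1 of each group, had higher shares than the 3 deep ones. These intervals and limits hold counting error and nothing else, because the same molecule can give several reads after PCR.

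miR-484, the other member made without Drosha, was the least abundant of the 4 in every library but not freeze-dried replicate 2. Its levels were 4654, 7789 and 6032 CPM in freeze-dried replicates 1, 2 and 3, and 5005 and 6506 CPM in not freeze-dried replicates 1 and 2. The lowest and the highest value were both in freeze-dried EVs. The means were 6159 ± 1571 CPM in freeze-dried EVs (SD, n = 3) and 5755 ± 1062 CPM in the not freeze-dried group (SD, n = 2). The log2 fold change was 0.10 (SE 0.32), not called by edgeR (adjusted p = 0.98). Its 95% interval, -0.62 to 0.82, lay inside a 2-fold change in either direction. Without freeze-dried replicate 1 the upper end was 1.04, and without freeze-dried replicate 3 it was 1.07, both past 2-fold. It also passed 2-fold without not freeze-dried replicate 2 and among the deep libraries, where 1 not freeze-dried library is left. The sign of the log2 fold change turned when the library total alone was used for scaling (-0.0051). It also turned without freeze-dried replicate 2 (-0.12) and without not freeze-dried replicate 1 (-0.0112).

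miR-423-5p stood at 5929, 9211 and 10109 CPM in freeze-dried replicates 1, 2 and 3, and at 5545 and 6322 CPM in not freeze-dried replicates 1 and 2. Freeze-dried replicate 1 lay between the 2 not freeze-dried libraries, and the other freeze-dried libraries lay above both. The means were 8416 ± 2200 CPM in freeze-dried EVs (SD, n = 3) and 5933 ± 550 CPM in the not freeze-dried group (SD, n = 2). The log2 fold change was 0.50 (SE 0.32, 95% interval -0.21 to 1.22), not called by edgeR (adjusted p = 0.98). Without freeze-dried replicate 1 it was 0.72 (interval 0.02 to 1.42, unadjusted p = 0.0451, adjusted p = 0.998 by edgeR, with the same range over all alternatives as for miR-320-3p).

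miR-423-3p stood at 6567, 10042 and 9165 CPM in freeze-dried replicates 1, 2 and 3, and at 8343 and 8787 CPM in not freeze-dried replicates 1 and 2. Again the lowest and the highest value were both in freeze-dried EVs. The means were 8591 ± 1807 CPM in freeze-dried EVs (SD, n = 3) and 8565 ± 314 CPM in the not freeze-dried group (SD, n = 2). The log2 fold change was 0.0044 (SE 0.29), not called by edgeR (adjusted p = 0.99). The 95% interval, -0.65 to 0.66, lay inside a 2-fold change in either direction, and the sign of this value near 0 differed between scalings. Over the 5 libraries its coefficient of variation was 15.0%, against 28.1% for miR-423-5p, 20.9% for miR-484 and 35.9% for miR-320-3p. The median over the 89 tested miRNAs averaging 1000 CPM or more was 27.3%, and 13 of them varied less than miR-423-3p.

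**Figure D1:**
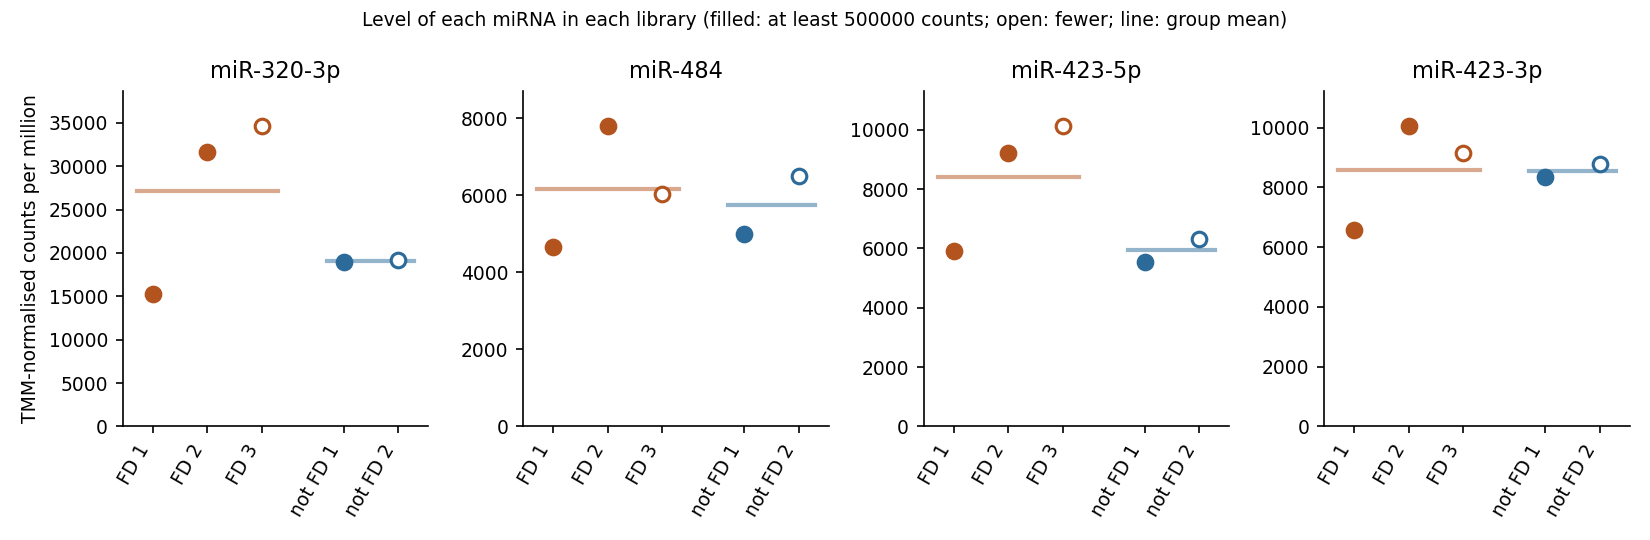
TMM-normalised CPM of each member (y axis, from 0) in each library (x axis; FD, freeze-dried; filled points, at least 500000 counts; open points, fewer; lines, group means). Freeze-dried replicate 1 is the lowest freeze-dried library for all 4, and the groups overlap in each panel.

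edgeR called 0 of the 4 members. Over all 327 tested miRNAs it called 0 higher (0.0%) and 0 lower (0.0%) in freeze-dried EVs. Before adjustment, p was under 0.05 for 9 miRNAs by edgeR, 4 higher (1.22%) and 5 lower (1.53%), with no member among them. The same count was 16 by DESeq2 and 15 by limma-voom, which also called 0 after adjustment. The fitted fold was above 1 for all 4, although miR-423-3p was below 1 with DESeq2 size factors, upper-quartile or library-total scaling, and miR-484 with the last of these. The share above 1 was 51.1% over all tested miRNAs and 56.2% over the 89 with at least 1000 CPM. The median log2 fold change was 0.30 over the members and 0.02 over all tested. For 0 of the 4 did all freeze-dried libraries lie above the not freeze-dried ones, against 8.87% of all tested and 14.6% of those with at least 1000 CPM. For 0 of the 4 did all lie below, against 8.56% of all tested. In the reported fit the 95% interval lay inside 2-fold for 2 of the 4, miR-484 and miR-423-3p. The share was 8.56% of all tested and 31.5% of those with at least 1000 CPM. A normalised level is a share of its own library, and a loss common to all miRNAs would leave it as it was.

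**Figure D2:**
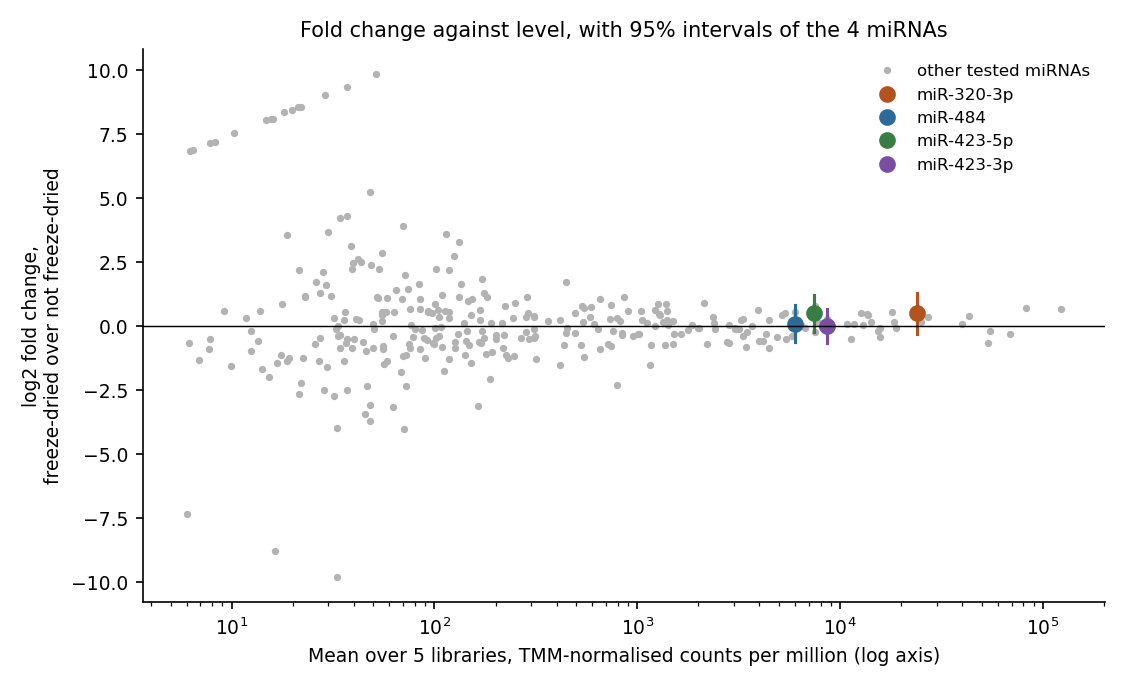
Log2 fold change, freeze-dried over not freeze-dried (y axis), against the mean level in CPM (x axis, log scale) for 327 tested miRNAs; bars are the 95% intervals of the 4 members. miR-320-3p and miR-423-5p sit at 0.51 and 0.50, miR-484 and miR-423-3p at 0.10 and 0.0044, and all 4 intervals cross 0.

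Within depth classes the fold of the geometric means can be set side by side, with 2 freeze-dried libraries against 1 in the deep class and 1 against 1 in the shallow class, and no test. For miR-320-3p it was 1.16 among deep and 1.80 among shallow libraries. For miR-423-5p it was 1.33 and 1.60. For miR-484 it was 1.20 among deep and 0.927 among shallow libraries. For miR-423-3p it was 0.973 and 1.04. Only miR-320-3p and miR-423-5p were above 1 in both classes.

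The 2 strands of miR-423 come from 1 hairpin, and their ratio within a library does not depend on the normalisation. There were 16317, 23745 and 1778 counts of the 5p strand in freeze-dried replicates 1, 2 and 3, beside 18073, 25887 and 1612 of the 3p strand. In not freeze-dried replicates 1 and 2 there were 5658 and 826 counts of the 5p strand beside 8514 and 1148 of the 3p strand. The 5p strand thus had close to as many counts as the 3p strand in freeze-dried EVs and fewer than it in not freeze-dried EVs.

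The 5p share of both strands was 47.4% (95% Wilson interval 46.9 to 48.0) in freeze-dried replicate 1, 47.8% (47.4 to 48.3) in replicate 2 and 52.5% (50.8 to 54.1) in replicate 3. In not freeze-dried EVs it was 39.9% (39.1 to 40.7) in replicate 1 and 41.8% (39.69 to 44.03) in replicate 2. All 3 freeze-dried libraries lay above both not freeze-dried ones, and the intervals of the groups did not touch. Those of freeze-dried replicates 2 and 3 did not touch each other either. The intervals hold counting error alone and not the spread between libraries. The mean share was 49.2% ± 2.78 in freeze-dried EVs (SD, n = 3) and 40.9% ± 1.36 in the not freeze-dried group (SD, n = 2), a difference of 8.36 percentage points. On the log2 scale the mean ratio of 5p to 3p was -0.04 ± 0.16 in freeze-dried EVs and -0.53 ± 0.08 in not freeze-dried EVs, a difference of 0.49. In an exact two-sided permutation test over the libraries p was 0.20, the smallest this test can give for 3 against 2 libraries, so it could not have reached 0.05 whatever the values. The difference was 0.45 among the deep libraries and 0.62 among the shallow ones.

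Of all hairpins, 13 had at least 10 counts of both strands in every library. The ratio of 5p to 3p was higher in all freeze-dried libraries for 2 of the 13 (15.4%), miR-423 and miR-125a, and lower for 1, miR-674, which together make 23.1%. miR-423 had the smallest spread within groups of the 13, with a pooled SD of 0.14 on the log2 scale against a median of 0.66. It also had the highest minimum count of the 13 pairs, 826, followed by let-7d with 752 and a pooled SD of 0.48. Of the other 12 hairpins, 5 had a larger difference between groups in either direction, and the median size over all 13 was 0.42. The strand shares of miR-423 were close to equal, as were those of miR-151 (47.2% 5p on average over the libraries, against 45.9% for miR-423), whose ratio differed by 0.35 with overlap between groups.

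**Figure D3:**
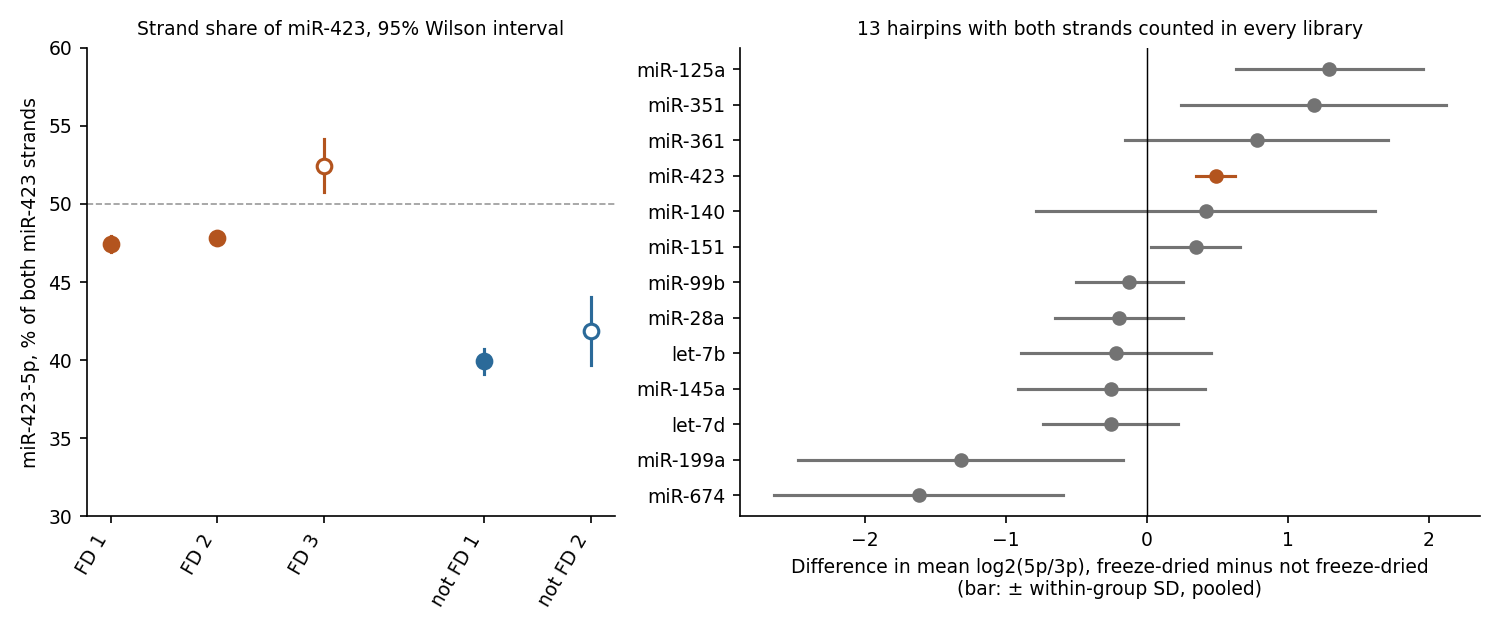
Left, the share of miR-423-5p among both miR-423 strands (y axis, percent, from 30 to 60) in each library with its 95% Wilson interval; filled points are deep libraries and open points shallow ones. Right, the difference in mean log2(5p/3p), freeze-dried minus not freeze-dried, for 13 hairpins with the pooled within-group SD as bars; miR-423 lies at 0.49 with the shortest bar.

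The other ratios between members were described without a test. miR-320-3p had 3.27, 4.06 and 5.73 counts per count of miR-484 in freeze-dried replicates 1, 2 and 3, against 3.79 and 2.95 in not freeze-dried replicates 1 and 2. The groups overlapped. The mean log2 ratio was 2.08 ± 0.41 in freeze-dried EVs (SD, n = 3) and 1.74 ± 0.26 in the not freeze-dried group (SD, n = 2), and the difference of 0.34 became -0.06 among deep libraries and 0.96 among shallow ones. The ratio of the 2 members made without Drosha was thus lowest and highest in the 2 shallow libraries.

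miR-320-3p and miR-423-5p kept closer to each other. Their ratio was 2.57, 3.43 and 3.42 in freeze-dried replicates 1, 2 and 3, and 3.42 and 3.04 in not freeze-dried replicates 1 and 2, with overlap. Against miR-423-3p, miR-320-3p had ratios of 2.32, 3.15 and 3.77 in freeze-dried EVs and of 2.28 and 2.19 in not freeze-dried EVs, without overlap. The gap between the lowest freeze-dried and the highest not freeze-dried value was small beside the spread of the freeze-dried libraries, whose mean log2 ratio was 1.59 ± 0.35, against 1.16 ± 0.04 in not freeze-dried EVs. miR-484 had 0.785, 0.846 and 0.597 counts per count of miR-423-5p in freeze-dried EVs, and 0.903 and 1.03 in not freeze-dried EVs, lower in all 3 freeze-dried libraries. Against miR-423-3p its ratios overlapped, at 0.709, 0.776 and 0.658 in freeze-dried EVs and 0.5998 and 0.740 in not freeze-dried EVs. The 6 ratios share members and so are not independent of each other. How often other pairs of miRNAs part the groups without overlap was not computed. Among the 13 hairpins above, the strand ratio did so for 23.1%.

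**Figure D4:**
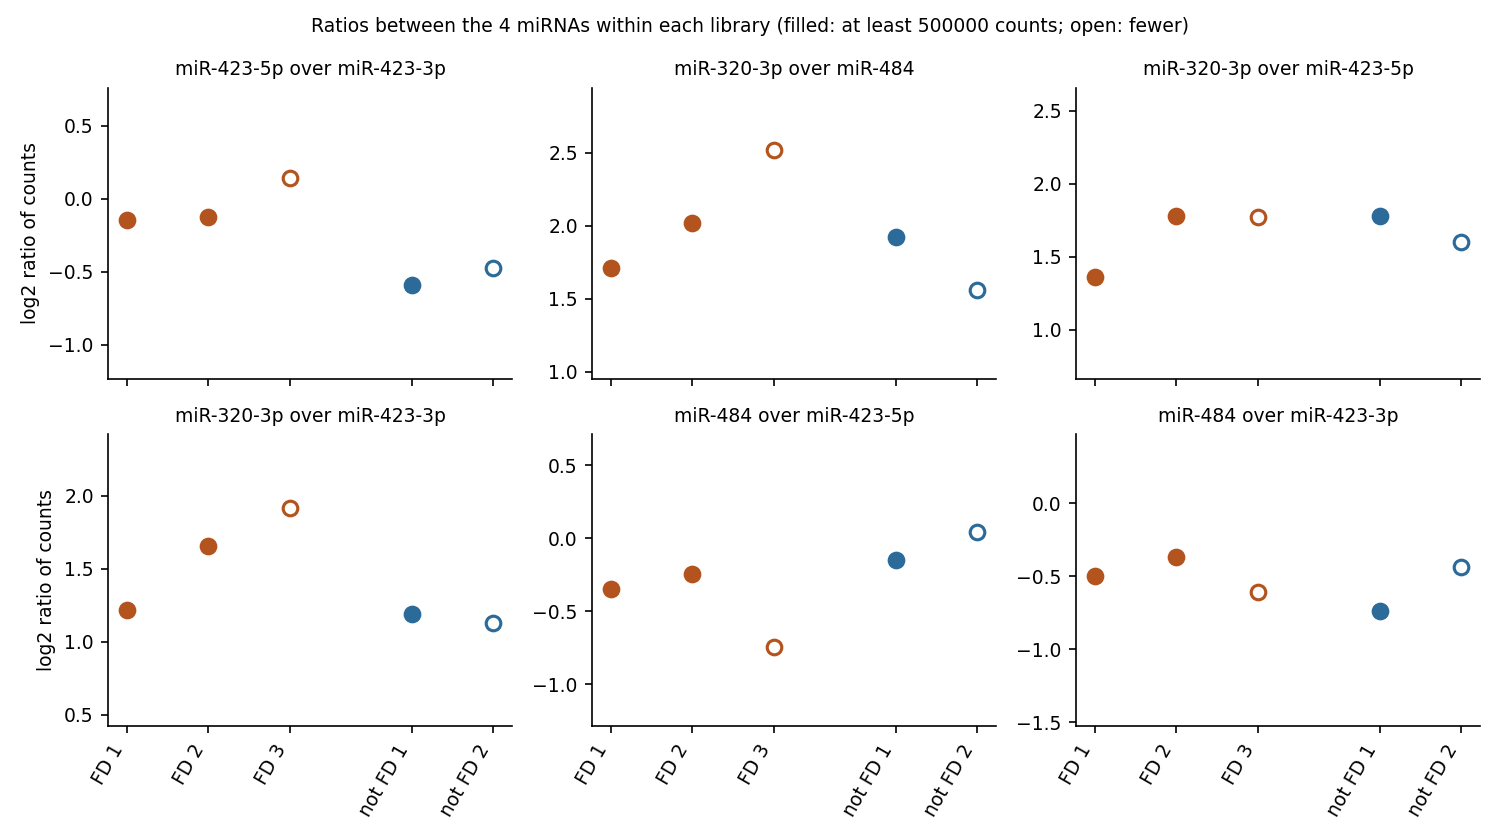
Log2 ratio of counts (y axis, each panel spanning 2 log2 units) between pairs of members in each library (x axis; FD, freeze-dried; filled points, deep; open points, shallow). The freeze-dried libraries all lie above the not freeze-dried ones for miR-423-5p over miR-423-3p and miR-320-3p over miR-423-3p, and all below for miR-484 over miR-423-5p.

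By mean level the order of the 4 was miR-320-3p, miR-423-3p, miR-423-5p and miR-484, at places 10, 26, 31 and 34 of all tested miRNAs. miR-320-3p was above the other members in 5 of 5 libraries. The order of the other 3 was not fixed: miR-423-5p exceeded miR-423-3p in freeze-dried replicate 3, and miR-484 exceeded miR-423-5p in not freeze-dried replicate 2. In the order of all miRNAs the neighbours of miR-320-3p were miR-30d-5p above and miR-140-3p below it. miR-320-3p was higher than miR-30d-5p in 1 of 5 libraries and higher than miR-140-3p in 3 of 5. miR-423-3p stood between miR-214-3p and miR-222-3p, miR-423-5p between miR-29a-3p and miR-27b-3p, and miR-484 between miR-351-5p and miR-199a-3p, with changes of place between libraries in each case.

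Likeness of pattern was measured over the 5 libraries as the root mean square difference of log2(CPM + 1), each miRNA centred on its own mean, among 191 other tested miRNAs of at least 100 CPM. The nearest to miR-320-3p were miR-1a-3p, a miRNA of striated muscle, at 0.16, miR-423-5p at 0.16 and miR-140-5p at 0.19, against a median distance of 0.75. The nearest to miR-423-5p were miR-1a-3p at 0.14, let-7d-3p at 0.15 and miR-320-3p at 0.16. The nearest to miR-423-3p were miR-484 at 0.13, miR-615-3p at 0.19 and miR-1a-3p at 0.20. The nearest to miR-484 were miR-615-3p at 0.11, miR-423-3p at 0.13 and miR-214-3p at 0.17. The 2 miR-423 strands were at 0.26 from each other, so that each was closer to another member than to its own partner strand.

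Other miRNAs made without Drosha were far less abundant. The list held 14 strands of mirtrons, hairpins cut out by splicing, and of small nucleolar RNAs, of which 9 had a count and 7 were tested. None was called, 2 had a fitted fold above 1 and 5 below, and the median log2 fold change was -0.45, against 0.02 over all tested miRNAs. The list took 0.0354% to 0.117% of the counts in freeze-dried EVs and 0.0743% to 0.100% in not freeze-dried EVs. Its most abundant was the mirtron miR-877-5p, with 153, 790 and 59 counts in freeze-dried replicates 1, 2 and 3, and 236 and 53 in not freeze-dried replicates 1 and 2 (log2 fold change -0.45, SE 1.01). The next, miR-1839-5p, had 17, 549 and 16 counts in freeze-dried EVs, and 122 and 26 in not freeze-dried EVs (log2 fold change -0.62, SE 1.59). Scaled to CPM, freeze-dried replicate 1 was the lowest of the 5 libraries for both, at 55.6 for miR-877-5p and 6.18 for miR-1839-5p. miR-451a, a red cell miRNA made without Dicer, had 715, 534 and 58 counts in freeze-dried EVs, and 246 and 24 in not freeze-dried EVs (log2 fold change 0.32, SE 0.92).

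Of 15 other miRNAs often abundant in vesicles or blood, led here by let-7b-5p and miR-21a-5p, all were tested and none was called. The fitted fold was above 1 for 7 and below 1 for 8, with a median log2 fold change of -0.18. let-7b-5p averaged 82070 CPM over the 5 libraries and miR-21a-5p 68430 CPM, against 23919 for miR-320-3p. The list took 24.3% ± 4.85 of the counts in freeze-dried EVs (SD, n = 3) and 25.4% ± 6.38 in not freeze-dried EVs (SD, n = 2).

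**Figure D5:**
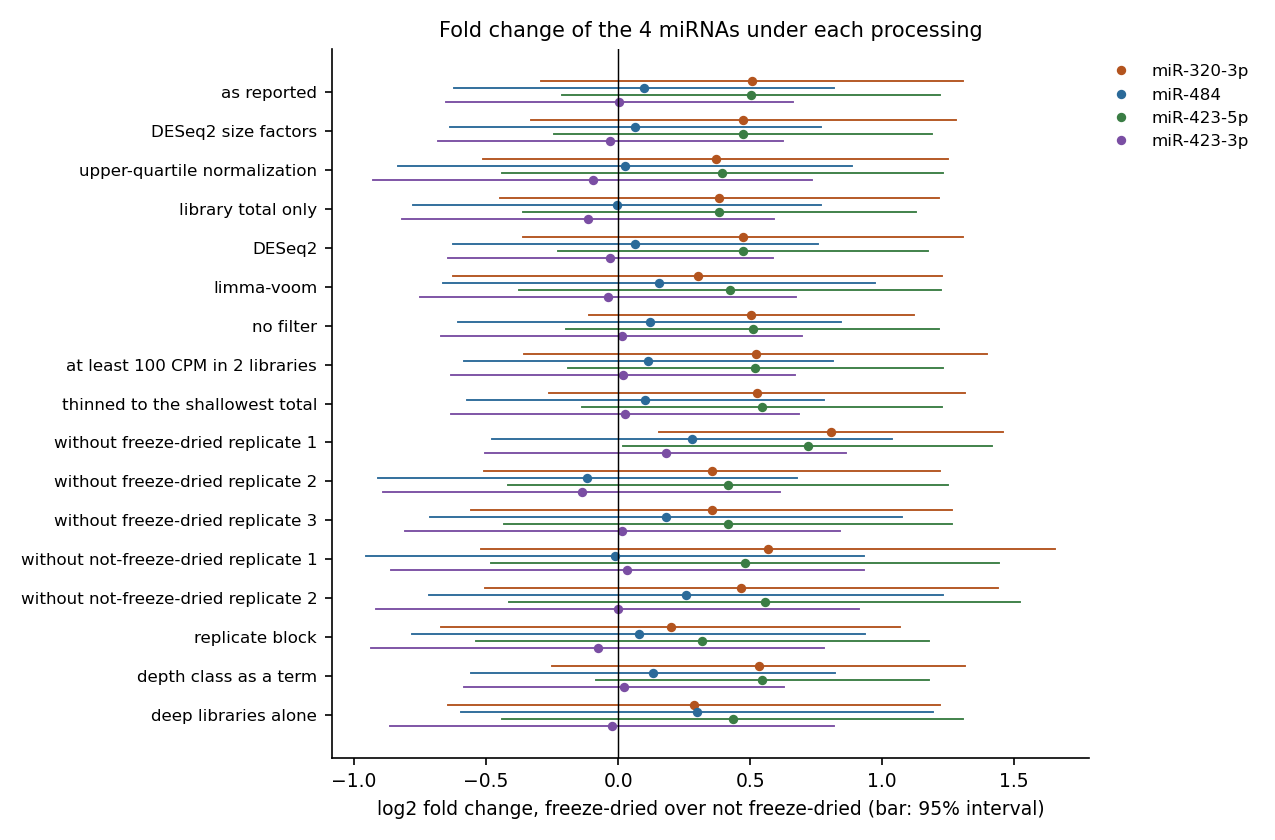
Log2 fold change of each member, freeze-dried over not freeze-dried (x axis, bars are 95% intervals), under the reported fit and 16 other ways of processing (y axis). miR-320-3p and miR-423-5p stay on the positive side in all of them, from 0.20 to 0.81 and from 0.32 to 0.72, while miR-484 and miR-423-3p lie on both sides of 0. In the fits with 1 not freeze-dried library, the median of all tested miRNAs rises too, to between 0.42 and 0.57.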

How the data were processed

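The authors deposited 1 table of raw counts of reads for mature miRNAs. Per the submitters' processing notes, which give tools without their roles, these included featureCounts 1.5.0-p1, Bowtie 1.1.2, cutadapt 2.3, FastQC and bcl2fastq 2.20, with GRCm38 as the genome build. How strand, PCR duplicates and reads with several matches were treated, and which miRNA annotation was used, is not given in these sources. Per the labels' protocols, Qiazol lysis was followed by RNeasy Micro columns, and the library kit was NEXTFLEX Small RNA-seq v3, with products of 126 to 169 bp kept.

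Groups came from the sample titles. Freeze-dried and not freeze-dried libraries were compared by running edgeR 4.0.16 (R 4.3.3) on the deposited counts (robust quasi-likelihood F test, TMM, filterByExpr with the group), with Benjamini-Hochberg adjustment over the 327 miRNAs tested and a threshold of 0.05. Each SE was derived from the F statistic and each 95% interval from the matching t distribution. Levels in CPM are TMM-normalised. Shares are of the raw library total. The strand ratio was tested with an exact permutation test in scipy 1.17.1. The functions were tested on simulated counts.

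Alternatives were other scalings, DESeq2 1.42.0, limma-voom (limma 3.58.1), other filters on low counts, thinning each library to 131507 counts, leaving out each library, a block for the replicate number, a term for depth class, and a fit of only the deep libraries; for the summed share, leaving the let-7 family out of the total; and for that share and the ratios, the shallow libraries alone. The members, lists, depth classes and alternatives were chosen with earlier results of these data known. The miRNAs named are the members, the 3 nearest by pattern and the neighbours in level of each, those sharing a seed, the other strand of a member's hairpin, and in each list any called member or, with none, the 2 most abundant; marker miRNAs and hairpins named for their strand ratio were singled out after their values were seen. Sequences are from RefSeq and loci from GENCODE M21.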

Additional observations from a re-analysis of the deposited data

How the results depend on the processing

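No alternative called a member, and miR-320-3p and miR-423-5p kept a positive log2 fold change in all 16, with adjusted p-values of 0.793 to 0.999 for both. That of miR-484 became -0.0051 with library totals alone, and ranged from -0.12 to 0.28 when 1 library was left out. That of miR-423-3p became -0.0292 with DESeq2 size factors, -0.10 with upper-quartile scaling, -0.11 with library totals, -0.0296 with DESeq2, -0.0386 with limma-voom and -0.0227 among the deep libraries. It ranged from -0.14 to 0.18 when 1 library was left out. Scaling by library totals moved the median of all tested miRNAs by -0.11, about as much as it moved these 2. The cause of the other turns was not tested. Leaving out 1 library gave 0.35 to 0.81 for miR-320-3p and 0.41 to 0.72 for miR-423-5p, the highest in each case without freeze-dried replicate 1. With 1 not freeze-dried library left, its variance is taken to equal that of the freeze-dried group.

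The difference in the miR-423 strand ratio was positive in all 10 alternatives, from 0.40 to 0.62, and 0.40 to 0.55 without 1 library. As the groups did not overlap, leaving out libraries, taking 1 depth class or pairing by number could not turn its sign. The difference in the ratio of miR-320-3p to miR-484 became -0.0586 in the deep libraries and 0.96 in the shallow ones, and ranged from 0.12 to 0.53 without 1 library. The difference in the summed share ranged from 0.119 to 1.65 percentage points without 1 library. It was 0.705 after thinning, 0.346 among the deep libraries, 1.42 among the shallow ones and 1.98 with the let-7 family left out of the total. The last is a share of a smaller total, so its size cannot be set beside the others. let-7b-5p and let-7c-5p were higher in all freeze-dried libraries, with log2 fold changes of 0.71 and 0.67, not called by edgeR. Their part in the raw shares was not tested.

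The count of 0 miRNAs called higher held in all alternatives. The count of 0 lower became 4 with the replicate block and 1 in the deep libraries, none of them a member, and was 0 without any 1 library. With the replicate block the log2 fold changes were 0.20 for miR-320-3p, 0.08 for miR-484, 0.32 for miR-423-5p and -0.0767 for miR-423-3p, and the strand ratio differed by 0.40. Only 2 pairs share a number, too few to decide whether the numbers pair the samples. Their deviations were correlated at 0.15 and -0.11, and the reported fit does not pair them.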
